A study of Mus musculus with 10 samples.

Results

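Interferon-stimulated genes are the genes that cells switch on when an interferon binds its receptor. A list of 44 mouse genes of this kind was read on the arrays of the series. A member was taken as every probe whose single gene symbol in the platform annotation was on the list, and the 2 probes of Eif2ak2 were averaged. In all, 38 of the 44 genes were on the array, among 20243 features, and Oas2, Oas3, Oasl1, Bst2, Ifi44 and Xaf1 had no probe matched by symbol. The choice of genes used no measured value of these arrays, but it was made by people and models that knew earlier results of them.

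RNA came from FDB1, a mouse myeloid progenitor line that depends on IL-3, in 2 versions. FI-Delta cells expressed FI-Delta, a receptor mutant, and Y577F cells expressed FI-Delta Y577F, which carries in addition a phenylalanine in place of a tyrosine. Cells of either line were sampled while growing in IL-3 with fetal calf serum (0 h) or after 3 washes and 72 h without the factor (72 h), with 2 cultures per line. All 4 RNA groups thus shared the FDB1 background and the FI-Delta mutation. No cells kept in IL-3 for 72 h were sampled, so loss of the factor, washing and time in culture cannot be told apart. Whether a line was a clone or a pool is not given in the sources used here, and with 1 line per receptor the receptor and the line cannot be told apart. Values are log2 ratios of pairs of samples and hold no levels, so the labelled cell type could not be checked by the level of its markers, and with 0 features named Csf2rb the receptor itself was not checked. In bulk RNA, fewer cells of a type and less RNA per cell cannot be told apart.

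As background, type I interferons act through a receptor whose kinases activate transcription factors, among them STAT2. STAT2 joins IRF9 in a complex that binds a DNA element with repeated GAAA letters, the interferon-stimulated response element (ISRE), while interferon gamma acts through another element, GAS. The genes so induced encode sensors of foreign nucleic acid, proteins that block virus entry or copying, antigen presentation proteins and the transcription factors that keep the response going. Myeloid cells also express many of these genes at a basal level.

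The promoters of 9 members are shown because they separate genes that carry the ISRE letters from genes that do not, among those whose values the results below turn on. Each run is the 130 bases before the RefSeq transcription start, 5′ to 3′ on the gene's strand, in build GRCm38.p6, and capitals mark matches, on either strand, to the letters GAAA, any 2 bases and GAAA again (matches may overlap). The regions are chr7:104465194-104465323 (minus strand) for Trim30a, chr11:48871421-48871550 (minus) for Irgm1, chr5:120907526-120907655 (minus) for Oas1a, chr4:156200819-156200948 (minus) for Isg15 and chr19:34640759-34640888 (plus) for Ifit1. Those of the IFITM genes are chr7:140955962-140956091 (minus) for Ifitm2 and chr7:140967946-140968075 (plus) for Ifitm1. The other regions are chr11:118401960-118402089 (minus) for Lgals3bp and chr11:83116690-83116819 (plus) for Slfn1.
Trim30a: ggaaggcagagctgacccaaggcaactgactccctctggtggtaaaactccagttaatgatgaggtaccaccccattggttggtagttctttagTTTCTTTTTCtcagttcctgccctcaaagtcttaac
Irgm1: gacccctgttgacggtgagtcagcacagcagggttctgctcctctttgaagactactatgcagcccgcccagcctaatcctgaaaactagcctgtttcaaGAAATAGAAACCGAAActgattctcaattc
Oas1a: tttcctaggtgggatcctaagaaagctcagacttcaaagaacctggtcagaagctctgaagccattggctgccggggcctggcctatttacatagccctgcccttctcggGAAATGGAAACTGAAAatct
Isg15: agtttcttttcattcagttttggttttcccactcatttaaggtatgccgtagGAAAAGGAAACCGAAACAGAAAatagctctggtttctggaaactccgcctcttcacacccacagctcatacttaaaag
Ifit1: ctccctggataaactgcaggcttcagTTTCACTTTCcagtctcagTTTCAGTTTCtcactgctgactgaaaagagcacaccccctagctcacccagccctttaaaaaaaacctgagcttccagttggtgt
Ifitm2: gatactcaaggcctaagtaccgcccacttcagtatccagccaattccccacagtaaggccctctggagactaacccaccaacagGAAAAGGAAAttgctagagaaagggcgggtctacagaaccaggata
Ifitm1: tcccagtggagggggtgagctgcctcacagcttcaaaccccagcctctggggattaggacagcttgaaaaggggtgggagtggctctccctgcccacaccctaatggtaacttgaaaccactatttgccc
Lgals3bp: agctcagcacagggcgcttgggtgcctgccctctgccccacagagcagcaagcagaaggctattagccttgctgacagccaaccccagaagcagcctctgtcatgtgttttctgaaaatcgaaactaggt
Slfn1: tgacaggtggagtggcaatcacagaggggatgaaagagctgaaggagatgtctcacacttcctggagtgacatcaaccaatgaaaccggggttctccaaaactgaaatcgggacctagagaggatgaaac
The first 6 promoters hold the letters in this window and the last 3 do not. Trim30a has 1 match, 36 bases before the start, Irgm1 and Oas1a each have 2 overlapping matches, and Isg15 has 3 in a row. In the 250 bases before the start, 14 of the 34 members with a promoter in the RefSeq table (41.2%) held a match, against 3.46% of 27025 genes. The GAS letters TTCNNNGAA stood in 8 of 34 members (23.5%) and 8.13% of all genes, and the matches of both kinds overlapped in 1 member, Bst2. A match is a string of letters and not a measured binding site. Only exact letters in these 250 bases counted, so the lack of a match does not show that a gene lacks such an element.

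Each side of the design had its own arrays: 3 set Y577F against FI-Delta cells at 0 h, 2 did so at 72 h, 3 set 72 h against 0 h in FI-Delta cells and 2 in Y577F cells. FI-Delta time arrays 1 and 2 held the same RNA with the dyes exchanged and counted as 1 hybridisation, so 9 entered the fit. Fitted values are log2 changes ± standard error of a limma model over all of these, and a gene was called at a Benjamini-Hochberg adjusted p under 0.05 over all features. Precision is limited by the number of arrays, and the members had median standard errors between 0.086 and 0.11. The p-values treat arrays as independent although they share RNA extracts. The 0 h arrays resembled each other least: across the 38 members the correlation of the array pairs was 0.064, -0.12 and 0.59 at 0 h, 0.74 at 72 h, 0.82 over time in Y577F cells and 0.63 to 0.86 over time in FI-Delta cells (a description across genes that share arrays).

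**Figure D1:**
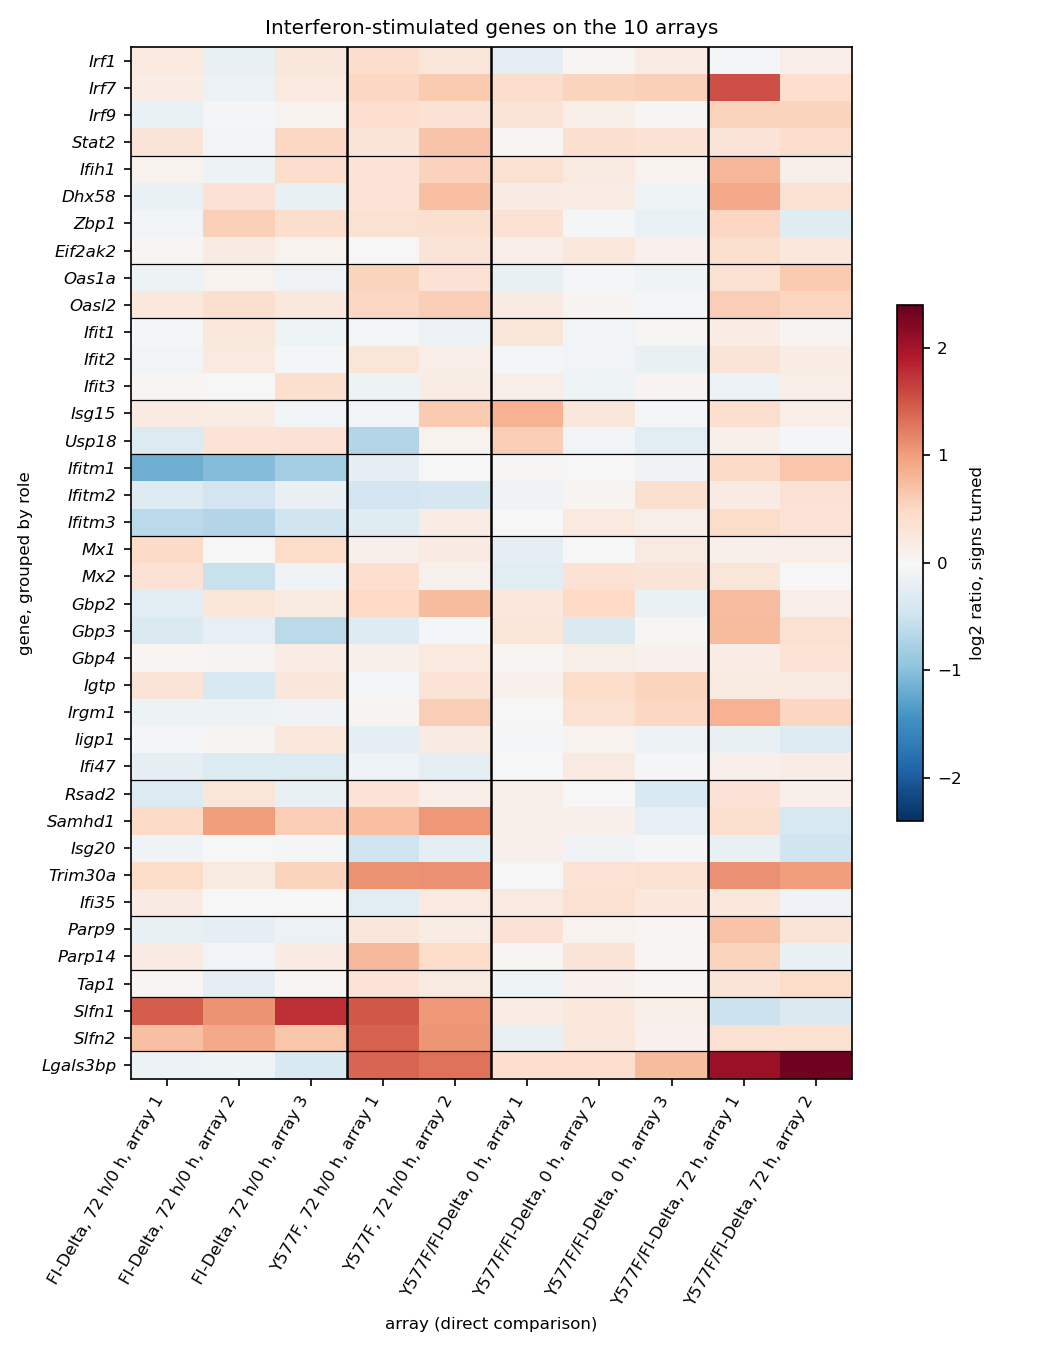
Log2 ratio of each of the 38 members (rows, grouped by role) on each of the 10 arrays (columns), with all signs turned to 72 h over 0 h or to Y577F over FI-Delta. Red is above 0 and blue below 0. Lgals3bp is deep red on both 72 h arrays (2.08 and 2.33), Slfn1 and Slfn2 are red on all 5 time arrays, and Ifitm1 is blue on the 3 FI-Delta time arrays.

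Over 72 h without IL-3, interferon-stimulated genes moved mainly upward in Y577F cells. There 18 of 38 members rose (47.4%, against 9.28% of all features), 2 fell (against 8.75%) and 18 did not pass the test. The background for a call in either direction was 18%. The median change of the members was 0.25 and that of all features 0.0073, and 28 fitted values of 38 lay above 0, against 51.8% of all features. On both direct arrays 25 members were above 0 (31.1% of all features) and 6 below 0 (29.7%). The count rested on both of these arrays, since 9 members were called without Y577F time array 1 and 10 without array 2. With a coefficient for each RNA extract (a replicate block, no dye term) it was 11. The calls over all features fell in these fits too, with that block from 3649 to 1721. Among the members, 6 calls held under every alternative tried, those of Lgals3bp, Slfn2, Slfn1, Trim30a, Samhd1 and Oasl2.

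The transcription factors of the pathway all rose in Y577F cells, 4 of 4. Irf7, which drives type I interferon genes, rose by 0.57 ± 0.16 (limma, adjusted p = 0.026), Stat2 by 0.47 ± 0.084, Irf9 by 0.38 ± 0.084 and Irf1, a factor induced by interferon gamma, by 0.31 ± 0.093 (adjusted p = 0.0403). Of these calls only that of Stat2 held without each array in turn. The call of Irf1 ended without any 1 of 8 of the 10 arrays, that of Irf7 of 3 and that of Irf9 of 2. Without Y577F time array 1 the values of Irf1 and Irf9 were 0.15 and 0.38, with adjusted p of 0.459 and 0.0714, and without array 2 that of Irf7 was 0.47 with an adjusted p of 0.184.

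Of the 4 sensors of foreign RNA and nucleic acid, 3 rose in Y577F cells. Dhx58, which encodes the RNA helicase LGP2, rose by 0.52 ± 0.12, Ifih1, the sensor MDA5 of long double-stranded RNA, by 0.44 ± 0.13 and Zbp1, a sensor of Z-form nucleic acid, by 0.39 ± 0.11. Eif2ak2, the RNA-activated kinase PKR, had a value of 0.18 ± 0.086 and was not called (95% interval -0.010 to 0.37). The call of Ifih1 ended without any 1 of 7 of the 10 arrays, that of Zbp1 of 6 and that of Dhx58 of 1. Without Y577F time array 2 the values of Dhx58, Ifih1 and Zbp1 were 0.33, 0.31 and 0.26 and none was called (adjusted p = 0.132, 0.254 and 0.272).

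Both oligoadenylate synthetase family members on the array, whose enzymatic members activate RNase L, rose in Y577F cells, Oasl2 by 0.61 ± 0.084 and Oas1a by 0.47 ± 0.086. Gbp2, a guanylate-binding GTPase that attacks the vacuoles of microbes, rose by 0.56 ± 0.14 and was the only 1 of the 9 large and immunity-related GTPases to be called. Parp14, an ADP-ribosyltransferase, rose by 0.49 ± 0.13 and Tap1, a subunit of the peptide transporter for antigen presentation, by 0.29 ± 0.080. Ifit2, of the family of proteins that bind viral RNA, was the only IFIT gene called (0.26 ± 0.078, adjusted p = 0.0408), and this call ended when any 1 of the 10 arrays was left out. The call of Gbp2 ended without either Y577F time array, with 0.38 and an adjusted p of 0.193 without array 2. The calls of Parp14 and Tap1 ended without array 1 (0.37 and 0.22, adjusted p = 0.242 and 0.254), and that of Oas1a likewise (0.41, adjusted p = 0.0508).

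In FI-Delta cells the same 72 h moved fewer members, and as many down as up. There 4 of 38 rose (10.5%, against 5.19% of all features), 4 fell (10.5%, against 2.97%) and 30 did not pass. The background in either direction was 8.16%. The median change was 0.063, beside -0.0055 for all features, and it ran from 0.028 without 72 h array 2 to 0.099 without Y577F time array 1. In the fit on all arrays 24 fitted values lay above 0, against 48.5% of all features. On the 3 direct arrays 8 members were always above 0 (18.2% of all features) and 8 always below (17.2%). Without FI-Delta time array 3, or without 72 h array 2, 5 members were called in place of 8, as with direct arrays only, and 4 were with the extract block. Over all features direct arrays only and the extract block gave 912 and 544 calls in place of 1652. The members that rose were Slfn1, Slfn2, Samhd1 and Trim30a, which rose in Y577F cells too, and those that fell were Ifitm1, Ifitm3, Gbp3 and Ifitm2.

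The Schlafen genes, tied to growth restraint and quiescence in lymphocytes, gave the largest rises in FI-Delta cells. Slfn1 had log2 ratios of 1.46, 1.08 and 1.76 on the 3 FI-Delta time arrays and 1.48 and 1.05 on the 2 Y577F arrays. All 5 values lay far above 0 and those of the lines overlapped. The fit gave a rise of 1.62 ± 0.13 in FI-Delta cells (3.06-fold, limma, adjusted p = 2.12e-05) and of 1.16 ± 0.12 in Y577F cells (2.24-fold). Slfn2 read 0.72, 0.90 and 0.67 in FI-Delta cells and 1.41 and 1.05 in Y577F cells. Here the Y577F arrays were higher than every FI-Delta array. The fitted rises of Slfn2 were 0.79 ± 0.11 and 1.18 ± 0.11, and the difference between the lines in this change missed the threshold for both genes, with -0.45 ± 0.14 for Slfn1 (adjusted p = 0.0747, 95% interval -0.76 to -0.14) and 0.39 ± 0.12 for Slfn2 (adjusted p = 0.0725, interval 0.12 to 0.66).

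Samhd1, which hydrolyses the nucleotides needed for DNA synthesis, rose in both lines. Its ratios were 0.47, 1.00 and 0.58 in FI-Delta cells and 0.73 and 1.05 in Y577F cells, with overlapping ranges. The fitted rises were 0.77 ± 0.14 and 0.83 ± 0.13, and the interval of their difference ran from -0.28 to 0.39. On the 72 h arrays that compare the lines, Samhd1 read 0.39 and -0.39, on opposite sides of 0.

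**Figure D2:**
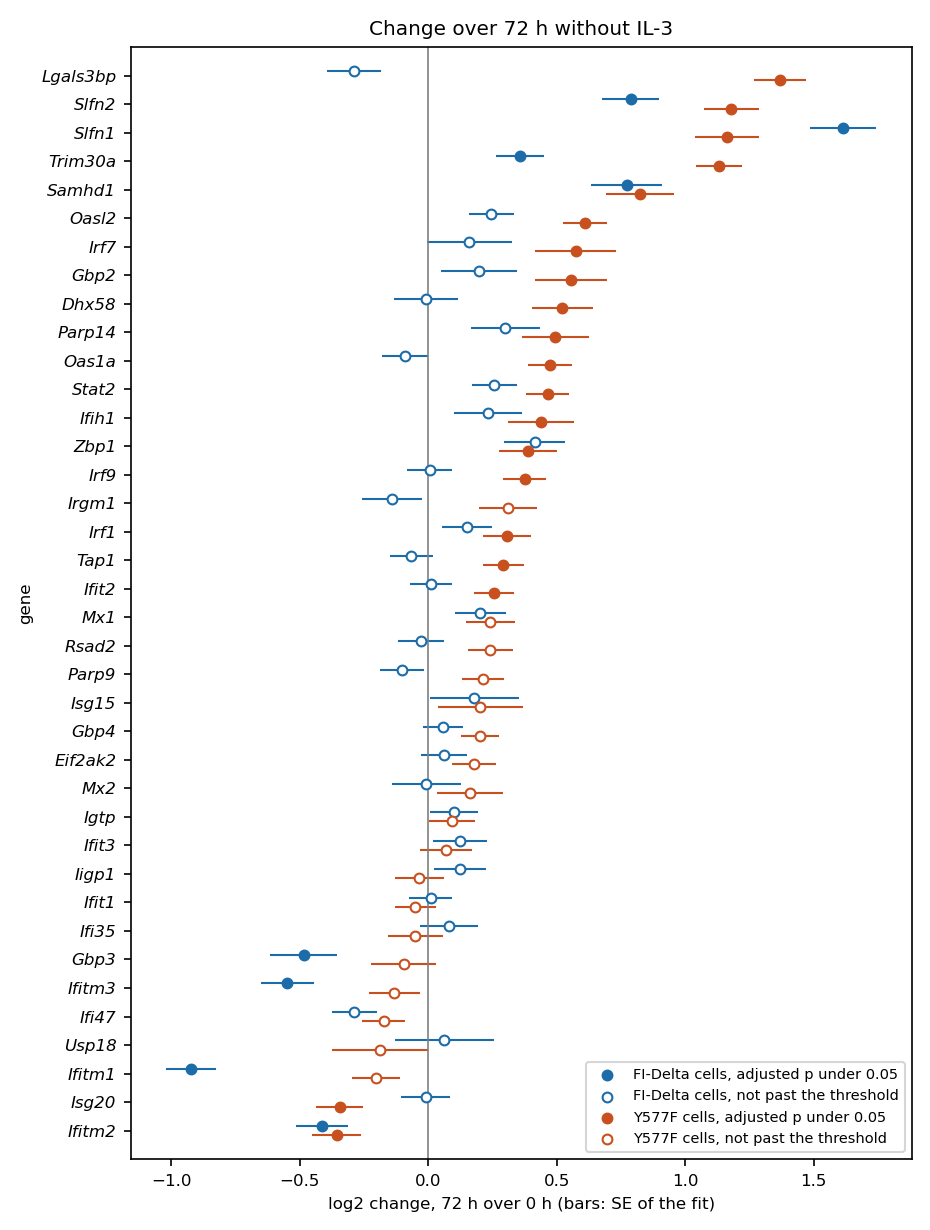
Fitted log2 change, 72 h over 0 h, of each of the 38 members in FI-Delta cells (blue) and Y577F cells (orange), ordered by the value in Y577F cells. Bars are the standard error of the fit, and filled points have an adjusted p under 0.05. Lgals3bp stands at -0.29 in FI-Delta and 1.37 in Y577F cells, and the filled points below 0 are Ifitm1, Ifitm3, Gbp3, Ifitm2 and Isg20.

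The IFITM genes encode membrane proteins that hinder the entry of viruses. Over time all 3 had fitted values below 0 in both lines, where most members lay above 0. Between the lines at 72 h all 3 lay above 0, as most members did. In FI-Delta cells 3 of 3 fell, though with the extract replicate block the calls of Ifitm2 (-0.35, adjusted p = 0.28) and Ifitm3 (-0.53, adjusted p = 0.0761) ended and that of Ifitm1 (-0.90, adjusted p = 0.0108) held. Ifitm1 read -1.17, -1.04 and -0.83 on the 3 FI-Delta time arrays and -0.24 and -0.014 on the Y577F arrays. Every FI-Delta array lay lower than both Y577F arrays. Ifitm1 fell by 0.92 ± 0.096 in FI-Delta cells (limma, adjusted p = 0.000123, a 1.89-fold drop) and had a value of -0.20 ± 0.093 in Y577F cells that was not called (interval -0.41 to 0.0022). Ifitm3 read -0.65, -0.70 and -0.48 in FI-Delta cells and -0.29 and 0.18 in Y577F cells, again with no overlap. It fell by 0.55 ± 0.10 in FI-Delta cells, with -0.13 ± 0.099 in Y577F cells.

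Ifitm2 was the IFITM gene that fell in both lines. It read -0.31, -0.45 and -0.18 in FI-Delta cells and -0.46 and -0.41 in Y577F cells, with overlapping ranges. The fitted drops were 0.41 ± 0.099 and 0.36 ± 0.096 (Ifitm2 fell by these amounts), and leaving out FI-Delta time array 3, Y577F time array 1, 0 h array 1 or 72 h array 2 ended the call in FI-Delta cells (adjusted p = 0.0526, 0.0596, 0.0801 and 0.0676), as leaving out either Y577F time array did in Y577F cells (adjusted p = 0.137 and 0.209). The extract block ended the Ifitm2 call in Y577F cells too. Members of the IFITM, Schlafen, guanylate-binding protein and IFIT families are similar in sequence, so a probe may detect more than 1 of them. Probe sequences were not used here, and this was not tested.

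The 2 other members that fell were Gbp3, a guanylate-binding GTPase, in FI-Delta cells and Isg20, an exonuclease that degrades single-stranded RNA, in Y577F cells. Gbp3 fell by 0.49 ± 0.13 in FI-Delta cells (adjusted p = 0.0428) and stood at -0.095 ± 0.13 in Y577F cells. This call of Gbp3 ended without any 1 of 7 of the 10 arrays. Isg20 fell by 0.34 ± 0.092 in Y577F cells (adjusted p = 0.0225) and stood at -0.010 ± 0.096 in FI-Delta cells. Without FI-Delta time array 3 Gbp3 was at -0.46 with an adjusted p of 0.184, and without Y577F time array 1 Isg20 was at -0.21 with an adjusted p of 0.31.

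Between the lines at 72 h the members were mainly higher in Y577F cells in the fit on all arrays. There 18 of 38 were higher in Y577F than in FI-Delta cells (47.4%, against 6.44% of all features), 1 was lower (against 6.45%) and 19 did not pass, with a background of 12.9% in either direction. The median difference was 0.29, beside 0.0073 for all features, and 33 fitted values lay above 0, against 51.4% of all features. On both direct arrays 28 members were above 0 (31.3% of all features) and 3 below 0 (28.3%). Without 72 h array 1 the number called was 9, with direct arrays only 7 and with the extract block 8, while array weights gave 31. Array weights raised the calls over all features too, from 2609 to 5537. Direct arrays only and the extract block lowered them to 1018 and 1060. Of the 19 calls, 8 held without each array in turn. This comparison shares its RNA with the time comparisons above and is no independent repeat of them.

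Lgals3bp, which encodes a secreted galectin-binding glycoprotein, gave the largest difference of all members. It read 2.08 and 2.33 on the 72 h arrays, 0.40, 0.40 and 0.77 on the 0 h arrays, 1.40 and 1.30 on the Y577F time arrays, and -0.13, -0.11 and -0.37 on the FI-Delta time arrays. Every array between the lines was above 0, and the time arrays of the lines lay on opposite sides of 0. In the fit Lgals3bp was 2.18 ± 0.10 higher in Y577F cells at 72 h (4.53-fold, limma, adjusted p = 1.48e-07) and rose by 1.37 ± 0.10 over time in Y577F cells (2.58-fold). In FI-Delta cells its change was -0.29 ± 0.10 and not called (adjusted p = 0.137, interval -0.52 to -0.057). The promoter printed above holds no match to the ISRE letters in its window.

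Trim30a, a TRIM family protein that restrains Toll-like receptor signalling, came next. On the 72 h arrays it read 1.11 and 1.00, on the 0 h arrays 0.0043, 0.32 and 0.36, on the Y577F time arrays 1.09 and 1.09, and on the FI-Delta time arrays 0.44, 0.22 and 0.53. The 72 h arrays lay above all 0 h arrays, and the Y577F time arrays above all FI-Delta ones. Trim30a was 1.01 ± 0.090 higher in Y577F cells at 72 h (2.01-fold) and rose by 1.13 ± 0.090 in Y577F cells. In FI-Delta cells it rose by 0.36 ± 0.094 (adjusted p = 0.0391), a call that ended without 5 of the 10 arrays and had an adjusted p of 0.249 without FI-Delta time array 3.

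Irf7 followed with a fitted difference of 0.96 ± 0.16 at 72 h (1.95-fold, adjusted p = 0.00166). Its 72 h arrays read 1.54 and 0.41, far apart, and without array 1 the difference of Irf7 was 0.63 and still called (adjusted p = 0.0224). On the 0 h arrays Irf7 read 0.42, 0.54 and 0.57, on the Y577F time arrays 0.50 and 0.62, and on the FI-Delta time arrays 0.18, -0.14 and 0.23. Irgm1, an immunity-related GTPase that acts on membranes and autophagy, read 0.83 and 0.51 at 72 h and 0.0035, 0.37 and 0.50 at 0 h. It read 0.074 and 0.58 over time in Y577F cells and -0.12, -0.13 and -0.083 in FI-Delta cells. All FI-Delta time arrays of Irgm1 were thus below 0 and all other arrays above it. The fit put Irgm1 0.69 ± 0.11 higher in Y577F cells at 72 h.

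Among the other sensors and effectors, Dhx58 was higher in Y577F cells at 72 h by 0.64 ± 0.12, Irf9 by 0.54 ± 0.084, Gbp2 by 0.52 ± 0.14 and Oasl2 by 0.49 ± 0.084. Parp9, the partner of an interferon-induced ubiquitin ligase, was higher by 0.51 ± 0.081. Gbp3 was higher by 0.48 ± 0.13, Oas1a by 0.47 ± 0.086, Ifih1 by 0.45 ± 0.13, Slfn2 by 0.42 ± 0.11, Stat2 by 0.39 ± 0.084, Tap1 by 0.36 ± 0.080 and Eif2ak2 by 0.30 ± 0.086. The call of Eif2ak2 ended without any 1 of 7 of the 10 arrays, and those of Gbp3 and Ifih1 of 4. Without 72 h array 1 the calls of Dhx58 (0.51), Gbp2 (0.40), Gbp3 (0.36), Ifih1 (0.27), Slfn2 (0.45), Stat2 (0.34), Tap1 (0.37) and Eif2ak2 (0.21) ended, with adjusted p between 0.0707 for Dhx58 and 0.353 for Ifih1, and without array 2 that of Oas1a did (0.37, adjusted p = 0.069).

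On the IFITM genes the lines differed at 72 h as well. Ifitm1 read 0.47 and 0.66 on the 72 h arrays and 0.035, 0.018 and -0.083 on the 0 h arrays, which did not overlap. Ifitm1 was 0.64 ± 0.093 higher in Y577F cells at 72 h (adjusted p = 0.000725). Ifitm3 read 0.45 and 0.32 at 72 h and 0.0015, 0.23 and 0.14 at 0 h and was 0.46 ± 0.099 higher, with an adjusted p of 0.107 without 72 h array 1. Ifitm2 read 0.20 and 0.35 at 72 h and -0.090, 0.072 and 0.38 at 0 h, and its difference of 0.20 ± 0.096 was not called (interval -0.014 to 0.40).

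A single member, Isg20, was called lower in Y577F cells at 72 h, and its call ended without any 1 of 6 of the 10 arrays. Isg20 read -0.18 and -0.48 on the 72 h arrays and was lower by 0.33 ± 0.092 in the fit (-0.33, adjusted p = 0.0367), with -0.24 and an adjusted p of 0.316 without 72 h array 2. Slfn1 read -0.51 and -0.34, below 0 on both arrays, but its fitted difference of -0.33 ± 0.12 was not called (adjusted p = 0.118, interval -0.60 to -0.054). Slfn2 read 0.37 on both, so the 2 Schlafen members lay on opposite sides of 0.

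**Figure D3:**
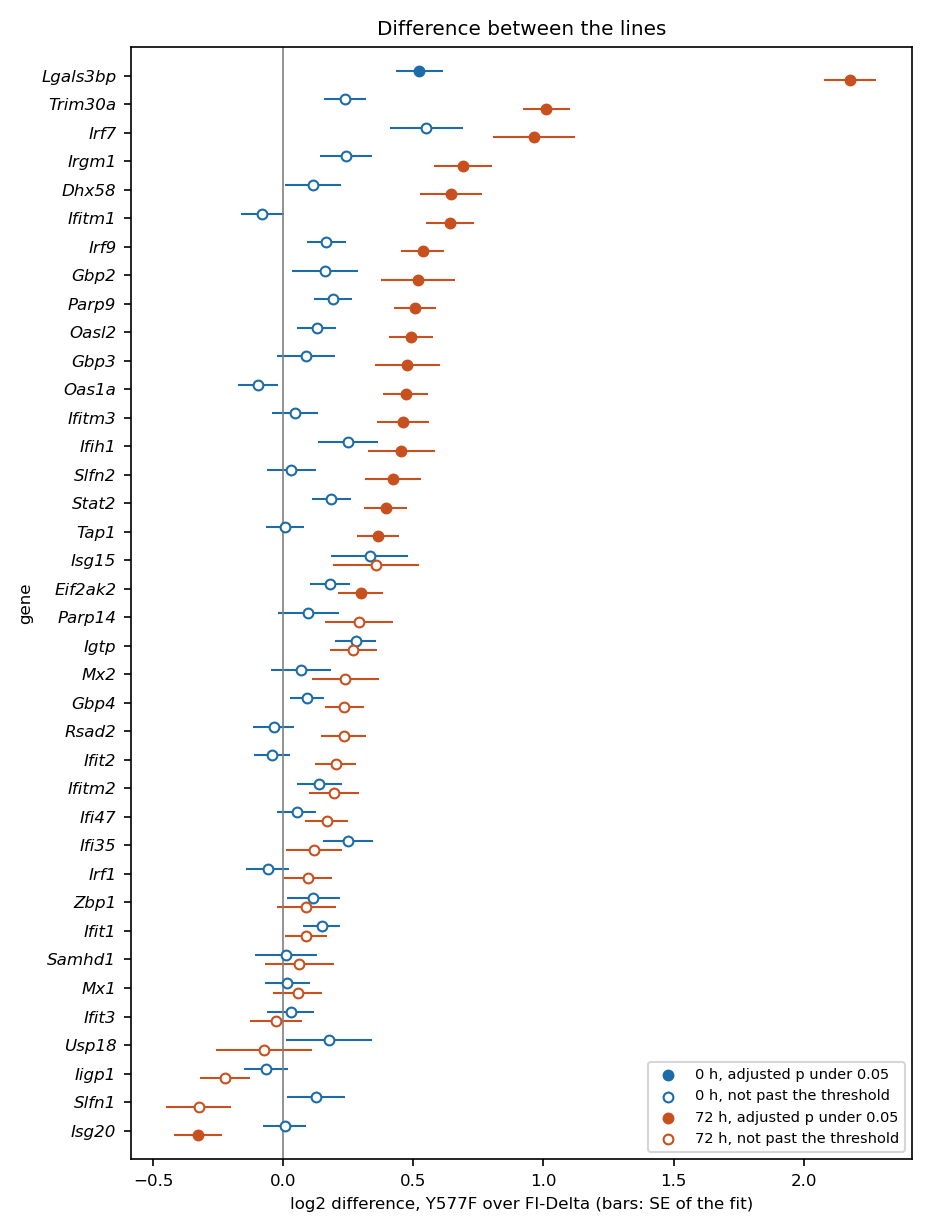
Fitted log2 difference, Y577F over FI-Delta, of each of the 38 members at 0 h (blue) and 72 h (orange), ordered by the value at 72 h. Bars are the standard error of the fit, and filled points have an adjusted p under 0.05. Of the points at 72 h, 18 filled orange ones lie above 0 and 1 below, and Lgals3bp is the only filled blue point.

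In IL-3, before the factor was withdrawn, few of these genes passed the test between the lines. At 0 h 1 of 38 members was called higher in Y577F cells (2.63%, against 0.934% of all features, 1.42% in either direction), namely Lgals3bp with 0.52 ± 0.090 (adjusted p = 0.0151). The call ended without 0 h array 1 (0.58, adjusted p = 0.135) and without 0 h array 3 (0.45, adjusted p = 0.0699), which left 0 members called in limma. Before adjustment 11 members had a p under 0.05. The fitted values of 32 of the 38 members lay above 0, against 47.8% of all features, with a median of 0.11 beside -0.0059. On all 3 arrays 15 members were above 0 (15% of all features) and 2 below 0 (14%). Irf7 had the largest value of all (0.55 ± 0.14), was above 0 on all 3 arrays and was not called (adjusted p = 0.104, interval 0.24 to 0.86).

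Whether the 72 h change itself differed between the lines was tested as a term of the same fit. It was called for 9 of 38 members (23.7%, against 9.24% of all features), and in all 9 the change was more positive in Y577F cells (against 4.33%) and in 0 less positive (against 4.91%). Fitted values of 29 members lay above 0, against 52.3% of all features. The 9 called were Lgals3bp (1.66 ± 0.12), Trim30a (0.77 ± 0.10), Ifitm1 (0.72 ± 0.11), Oas1a (0.57 ± 0.099), Dhx58 (0.53 ± 0.14), Ifitm3 (0.42 ± 0.11), Irf9 (0.37 ± 0.096), Oasl2 (0.36 ± 0.097) and Tap1 (0.36 ± 0.092). Lgals3bp, Trim30a, Ifitm1 and Oas1a stayed called without each array in turn. With direct arrays only the calls of Trim30a, Ifitm1 and Oas1a ended, and with the extract block those of Ifitm1 and Oas1a. Without FI-Delta time array 2, 7 members were called more positive and 1 less positive. A less positive call also appeared without either Y577F time array. Without 0 h array 1 or without 72 h array 1, 4 members were called, and 5 were called if 0 h array 3 or FI-Delta time array 3 was left out. Direct arrays only gave 1, the extract block 2, scaled arrays 4, the culture block 5 and array weights 14. Array weights raised the calls over all features from 1871 to 2475. Direct arrays only, the extract block, scaled arrays and the culture block lowered them to 210, 440, 1444 and 1434. Without adjustment 19 members had a p under 0.05. For the other 29 members a difference in change was not shown, which does not show that they changed alike.

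**Figure D4:**
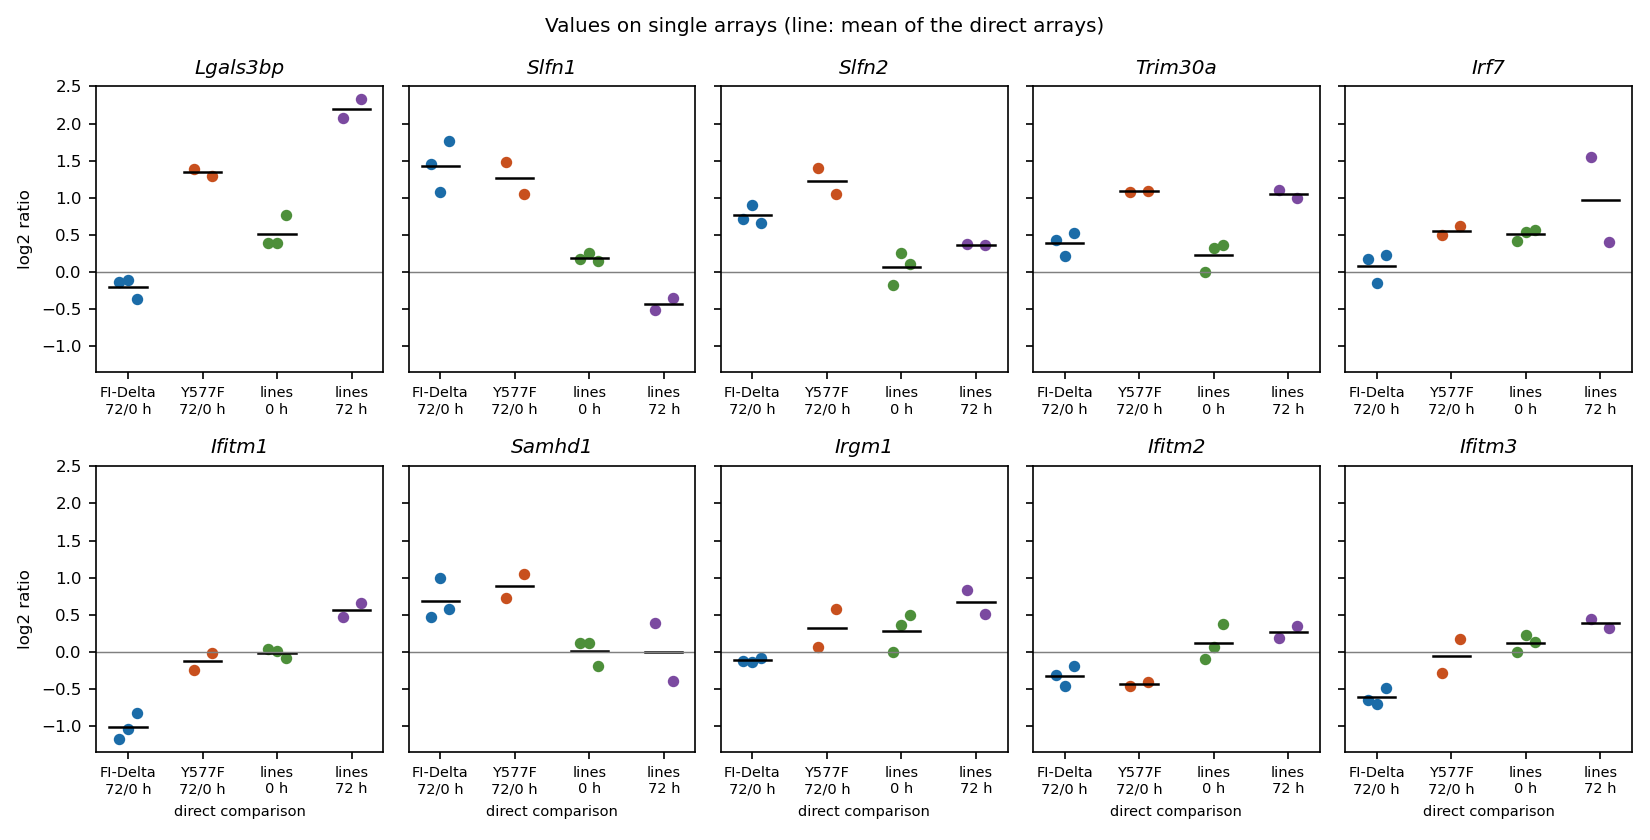
Log2 ratios of 10 members on single arrays (points) in the 4 direct comparisons, with the mean of the direct arrays as a line. FI-Delta and Y577F panels give 72 h over 0 h, and the columns named lines give Y577F over FI-Delta. Lgals3bp is above 2 on both 72 h arrays, Ifitm1 below -0.8 on all FI-Delta time arrays, and the 72 h points of Irf7 (1.54 and 0.41) and Samhd1 (0.39 and -0.39) lie far apart.

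Several genes that are widely used as markers of an interferon response were called in no comparison of the fit with equal weights for all arrays. They were 12 of the 38, namely Ifit1, Ifit3, Isg15, Usp18, Mx1, Mx2, Gbp4, Igtp, Iigp1, Ifi47, Rsad2 and Ifi35. The share of all features called in no comparison was not counted. Within a single comparison only 1.42% to 18% of all features were called in either direction, so a lack of calls was common. With array weights 8 of these 12 were called in at least 1 comparison. That setting also raised the calls over all 20243 features, from 2609 to 5537 at 72 h. Over time the calls over all features went from 3649 to 4247 in Y577F cells and from 1652 to 3786 in FI-Delta cells. Isg15 (0.38), Mx2 (0.33), Gbp4 (0.24), Igtp (0.37), Rsad2 (0.23) and Ifi35 (0.25) were then higher in Y577F cells at 72 h, Mx1 rose in Y577F cells (0.28) and Ifi47 fell in FI-Delta cells (-0.28). Ifi47 was also called in FI-Delta cells with the dye swap arrays entered separately (-0.29) and without FI-Delta time array 1 (-0.31), and Igtp at 72 h without 72 h array 2 (0.41). Isg15, a ubiquitin-like modifier, read 0.40 and 0.17 on the 72 h arrays and 0.83, 0.27 and -0.047 on the 0 h arrays, and its difference of 0.36 ± 0.17 at 72 h had an interval of -0.0076 to 0.72. Usp18, the protease that removes Isg15 from proteins, had -0.075 ± 0.19 at 72 h. Ifit1 stood at 0.0091 ± 0.084 over time in FI-Delta cells and -0.050 ± 0.080 in Y577F cells, with an upper bound of 0.13 in Y577F cells, and Rsad2, the antiviral enzyme viperin, at -0.028 ± 0.091 and 0.24 ± 0.087. Mx1, a GTPase that traps viral particles, had 0.20 ± 0.099 and 0.24 ± 0.095. The promoters of Isg15 and Ifit1 printed above carry 3 and 2 matches to the ISRE letters. A ratio of a probe near background would lie near 0 whatever its gene did, and signal intensities were not used here.

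Members with and without the ISRE letters were set side by side. Of the 29 members on the array with a promoter in the table, 12 held a match and 17 did not. Higher in Y577F cells at 72 h were 6 of the 12 with a match and 10 of the 17 without (against 6.44% of all features), with medians of 0.37 and 0.36. Lower there were 0 with and 1 without a match (against 6.45%). Over time in Y577F cells 4 with and 11 without a match rose, with medians of 0.22 and 0.31. Trim30a, Irgm1 and Oas1a are examples with a match, and Lgals3bp, Slfn1 and Slfn2 examples without an exact one. The GAS letters stood in 7 of the 29 and not in 22. Higher in Y577F cells at 72 h were 2 with and 14 without GAS letters, and lower were 1 and 0, with medians of 0.20 and 0.44. Over time in Y577F cells 4 with and 11 without GAS letters rose, with medians of 0.26 and 0.30. Differences between genes with and without a match were not tested. Elements that differ from the letters of either motif or lie outside the window were not searched for.

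The interferons themselves and their receptors come from a list of 31 signalling genes on the array. None of the 7 interferon genes (Ifnb1, Ifng and 5 of the Ifna family) was called in any of the 5 comparisons in limma. Their values lay between -0.34 and 0.079 over time in FI-Delta cells, where 1 of the 7 had an unadjusted p under 0.05, and between -0.13 and 0.080 in Y577F cells, where 0 had. Of 4 receptor genes, 3 rose (against 9.28% of all features) and 1 fell (against 8.75%) in Y577F cells. Ifngr1, a chain of the interferon gamma receptor, rose by 0.71 in Y577F and 0.60 in FI-Delta cells. Its call in FI-Delta cells ended with direct arrays only and with the extract block (limma, adjusted p up to 0.0536). Ifnar1, a chain of the type I receptor, fell by 0.74 in Y577F cells.

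Over the whole list of 31 signalling genes the median change in Y577F cells was 0.20, beside 0.25 for the members, and the median difference at 72 h 0.13, beside 0.29. Irf5, a factor downstream of Toll-like receptors, rose by 1.49 ± 0.11 in Y577F cells and 0.54 ± 0.11 in FI-Delta cells and was 1.31 ± 0.11 higher in Y577F cells at 72 h. Its call in FI-Delta cells ended with direct arrays only, with the extract block and without FI-Delta time array 3 (adjusted p up to 0.108). Irf8, a factor of monocyte and dendritic cell development, rose by 1.19 ± 0.075 in Y577F cells, and Tlr9, a sensor of unmethylated DNA, by 1.29 ± 0.090. Socs1, a feedback inhibitor of cytokine signalling, fell in both lines, by 0.87 ± 0.16 in FI-Delta and 0.98 ± 0.15 in Y577F cells, and was 0.82 ± 0.14 higher in Y577F cells at 0 h. Socs3 was 0.59 ± 0.083 higher in Y577F cells at 0 h and 0.99 ± 0.092 at 72 h. At 0 h the call of Socs1 ended with direct arrays only (0.89, adjusted p = 0.196), the extract block (0.87, 0.124) and the culture block (0.84, 0.0561). That of Socs3 at 0 h ended with direct arrays only (0.63, adjusted p = 0.0751), the extract block (0.59, 0.23) and without 0 h array 1 (0.51, 0.143). In all, 11 of 31 rose (35.5%, against 9.28% of all features) and 3 fell (9.68%, against 8.75%) over time in Y577F cells. In FI-Delta cells 6 rose (19.4%, against 5.19%) and 2 fell (6.45%, against 2.97%), and at 72 h 8 were higher (25.8%, against 6.44%) and 0 lower in Y577F cells.

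A second list held 46 further interferon-inducible genes on the array. Of these 16 rose (34.8%, against 9.28% of all features) and 2 fell (4.35%, against 8.75%) in Y577F cells, and 9 rose (19.6%, against 5.19%) and 0 fell in FI-Delta cells. At 72 h 14 were higher in Y577F cells (30.4%, against 6.44%) and 3 lower (6.52%, against 6.45%, which is the background share). Slfn4, another Schlafen gene, rose by 1.13 ± 0.11 in FI-Delta cells, and its change was less positive in Y577F cells by 0.81 ± 0.12 (-0.81), the sign that Slfn1 showed. With direct arrays only this difference was not called (adjusted p = 0.127). In this test 7 of the 46 were more positive in Y577F cells (15.2%, against 4.33% of all features). Another 4, Slfn4 among them, were less positive (8.7%, against 4.91%). Plscr1 (-0.79 ± 0.12) and Tgtp1 (-0.74 ± 0.17) were less positive too, and Ifi203 was more positive (0.70 ± 0.16). These calls also ended with direct arrays only. Slfn3 rose in both lines (0.89 ± 0.11 and 1.06 ± 0.11), as did Sp100, a nuclear body protein (0.84 ± 0.090 and 1.09 ± 0.087). Ifi203 and Epsti1, both interferon-inducible, were 1.01 ± 0.14 and 0.92 ± 0.10 higher in Y577F cells at 72 h.

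The class I antigen presentation genes, partly driven by interferon, followed the same direction between the lines at 72 h. Of 14 on the array 9 were higher in Y577F cells (64.3%, against 6.44% of all features) and 0 lower, led by Tapbp, the peptide loading factor tapasin (1.05 ± 0.11), and B2m, the light chain of class I molecules (0.94 ± 0.13). Over time 1 rose (7.14%, against 5.19%) and 4 fell (28.6%, against 2.97%) in FI-Delta cells, and 4 rose (28.6%, against 9.28%) and 1 fell (7.14%, against 8.75%) in Y577F cells. B2m rose by 0.68 ± 0.13 in FI-Delta and by 1.51 ± 0.13 in Y577F cells, and its call in FI-Delta cells ended with direct arrays only and with the extract block (adjusted p up to 0.084).

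Lists of mature myeloid cell markers moved in different directions. Over time in Y577F cells, and between the lines at 72 h, monocyte and macrophage markers went mainly upward, as the members did. Neutrophil granule markers went mainly downward in both comparisons. Background shares over time were 9.28% rising and 8.75% falling in Y577F cells, and 5.19% and 2.97% in FI-Delta cells. For the lines at 72 h the background was 6.44% with Y577F above FI-Delta and 6.45% with it below. Of 15 monocyte and macrophage markers on the array, 14 rose (93.3%) and 0 fell in Y577F cells (median 1.04), and 10 rose (66.7%) and 0 fell in FI-Delta cells (median 0.68). At 72 h 12 of them were higher (80%) and 1 lower in Y577F cells (median 1.03). Of 14 neutrophil granule markers, 12 rose (85.7%) and 0 fell in FI-Delta cells, and 2 rose (14.3%) and 6 fell (42.9%) in Y577F cells. At 72 h 13 of them were lower (92.9%) and 1 higher in Y577F cells (median -2.69), and at 0 h 12 were lower already (85.7%, against 0.484%). Mast cell and basophil markers fell in 4 of 8 cases in either line (50%). Of 13 lymphoid and dendritic cell markers 2 rose in Y577F cells (15.4%) and 1 in FI-Delta cells (7.69%). Of 8 erythroid and megakaryocyte markers 2 fell in either line (25%), 2 rose in Y577F cells and 0 in FI-Delta cells, and at 72 h 2 were higher and 1 lower in Y577F cells. Among them Hba-a1, a haemoglobin gene, fell by 1.30 in FI-Delta and 1.82 in Y577F cells, while 5 of the 8 fitted values lay above 0 in either line. Ratios hold no levels, so no summed level of a marker list is given. The part of these cell states in the values of the interferon-stimulated genes was not tested.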

How the data were processed

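Pairs of total RNA samples, made fluorescent by indirect Cy5 and Cy3 labelling per the labels' protocols, were hybridised to 10 spotted arrays. The authors deposited 1 log2 ratio per spot and array, already normalised. The submitters' processing notes name limma without a version. How background was corrected, how arrays were normalised, the log base and the ratio's direction are details not given in the sources used here. Base 2 and Cy5 over Cy3 were assumed, as limma writes them. If the true direction were the reverse, each sign in the text would reverse. The relative orientation rests on the dye labels. After turning, array pairs of opposite dye correlated over all features at 0.52 at 72 h, 0.63 (Y577F time) and 0.24 and 0.35 (FI-Delta time), but at 0.087 and -0.037 at 0 h, where this did not settle it.

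Of 23040 spots, 1243 control spots were left out, among them 2 of Ifit1. Averaging the probes of each single symbol gave 20243 features. The model (limma 3.58.1, R 4.3.3) had 3 coefficients for the 4 groups and a dye term, with 5 residual and 6.34 prior degrees of freedom. Tests were two-sided, adjusted over all features within each of 5 comparisons, and the script was tested on simulated data. Replicate numbers given to the opposite lines on arrays with Y577F RNA in Cy5 were read in title order, which only the replicate blocks use. Promoters came from RefSeq.

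The members and lists were chosen with earlier results of these data known. Every member on the array could be named. From the 3 related lists up to 4 called genes per comparison were named by size, and Hba-a1 was named outside this rule. Single-array values are given for the 8 members with the largest called values and for the IFITM genes, and those of Isg15, Isg20, and the interferon and receptor genes were chosen after their values were seen. Alternatives were array weights, centring and scaling, direct arrays only, the dye swap kept separate, probes kept separate, no dye term, 2 replicate blocks, robust moderation, each array left out, and the Ifit1 control spots.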

Additional observations from a re-analysis of the deposited data

Results flagged for a closer look

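In 9 members the change over 72 h differed between the lines by a test of the difference itself, a term of the limma fit over all arrays. The difference (Y577F minus FI-Delta, log2) was 1.66 for Lgals3bp, which rose in Y577F cells on both arrays and was below 0 on all 3 FI-Delta arrays. For Trim30a it was 0.77, and this gene rose in both lines. For Ifitm1 it was 0.72 and for Ifitm3 0.42, and these genes fell in FI-Delta cells and had no called change in Y577F cells. The values of Oas1a (0.57), Dhx58 (0.53), Irf9 (0.37), Oasl2 (0.36) and Tap1 (0.36) belong to genes that rose in Y577F cells and were not called in FI-Delta cells. The adjusted p lay between 1.34e-05 for Lgals3bp and 0.0415 for Ifitm3, and no cause was tested. Only the call of Lgals3bp held in all 20 alternatives. That of Ifitm3 ended in 13, those of Irf9, Oasl2 and Tap1 in 11 each and that of Dhx58 in 10. Those of Ifitm1 and Oas1a ended in 2 each and that of Trim30a in 1.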

How the results depend on the processing

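Of the 57 called member results, 17 kept their call in all 20 alternatives, 40 lost it in at least 1, and 0 changed sign. The number of members called was 8 over time in FI-Delta cells, 20 over time in Y577F cells, 1 between the lines at 0 h, 19 at 72 h and 9 for the difference in change. Taking direct arrays only gave 5, 14, 0, 7 and 1, and fewer arrays enter each of these fits. A replicate block for each RNA extract without the dye term gave 4, 11, 0, 8 and 2, and a replicate block for culture number gave 5 for the difference in change. The calls over all features were 1652, 3649, 287, 2609 and 1871 on all arrays. With direct arrays only they were 912, 2224, 46, 1018 and 210, and with the extract block 544, 1721, 22, 1060 and 440. Array weights gave 2 at 0 h, 31 at 72 h and 14 for the difference. Over all features they gave 445, 5537 and 2475 calls, in place of 287, 2609 and 1871. Centring and scaling gave 4 for the difference. Leaving out 1 array gave 5 to 10, 9 to 19, 0 to 2, 9 to 19 and 4 to 8, and each remaining arm of 1 array is then assumed to vary like the others. The members' median over time in Y577F cells was 0.264 with array weights, 0.237 scaled, 0.264 with direct arrays only, 0.253 with the dye swap separate, 0.25 without the dye term, 0.263 and 0.25 with the culture and extract replicate blocks, and 0.242 to 0.274 without 1 array. The median of the difference in change was 0.15 to 0.292 without 1 array, the highest without 72 h array 2. Without 1 array the median was 0.0285 to 0.099 over time in FI-Delta cells, 0.0751 to 0.125 at 0 h and 0.235 to 0.39 at 72 h, ranges that are wide beside the values of 0.0626, 0.115 and 0.294 on all arrays. Counts not given here stayed within 1.5 times those on all arrays. The causes were not tested. With few arrays, small changes of single genes were not detectable, and signal over background was not analysed here.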
